A study of Polypedilum vanderplanki with 72 samples.

Results

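In Pv11 cells, 106 genes differed between the HSF1 knockout and the wild type in opposite directions in the 2 stresses at which both were measured. Of these, 95 were lower in the knockout after trehalose treatment and higher in it after heat shock, and 11 went the other way round. They were found among 6257 genes past a minimum level, of 17156 genes in the deposited table. Pv11 is a cultured line of cells from Polypedilum vanderplanki, the sleeping chironomid, whose larvae can lose nearly all their water and revive. The cells can be dried and revived when they have first been held in trehalose, a disaccharide that the larvae accumulate. HSF1, heat shock factor 1, is a transcription factor that chaperones hold inactive in unstressed cells. On heat or other protein damage it forms trimers, enters or stays in the nucleus and binds heat shock elements in the promoters of chaperone genes. In the sleeping chironomid, HSF1 has also been tied to the genes that are switched on when the larvae dry out.

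The 72 libraries of polyA RNA form 24 groups of 3. The knockout (KO) lacks HSF1 and carries no added form. In the same KO background, 7 lines overexpress a single HSF1 form: the Polypedilum isoforms V1, V2, V3, V4 and V5-6, Drosophila HSF1a (Dma) and Drosophila HSF1b (Dmb). Wild-type cells (WT) carry their own HSF1 and no added form. Libraries of all 9 genotypes exist for cells kept for 48 h in trehalose at 600 mM (T48) and for cells given 6 h of heat shock (HS6h), while V1, V2, V3, V4, V5-6 and WT were also measured at 24 h of rehydration that followed 11 days of desiccation (R24). The lines are clonal, so a line and its clone cannot be told apart, and the promoter of the added forms is not given in the sources used here. The heat shock temperature, and whether heat-shocked cells had been held in trehalose, are not given either, and no untreated cells are among the groups. Whether the 3 libraries of a group came from separate cultures is not stated, so p-values measure only the spread between libraries, part or all of which may be technical. The deposited IDs are not paired with gene names, and 0 of 17156 IDs matched the RefSeq table of 17863 loci. The level of HSF1 itself, which would check the KO label, could therefore not be read, and neither functions nor sequences are given. A library held between 3043636 and 5091075 gene counts at T48, between 4951847 and 8808472 at R24, and between 4374617 and 7199241 at HS6h.

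The members were chosen by their KO and WT levels in CPM, the counts of a library scaled by its own sum of gene counts to a common total. A mean of 5 CPM or more was required in KO or WT at both T48 and HS6h, and 0.5 was added to each mean. The KO over WT ratio then had to be at least 1.4 in one of T48 and HS6h and at most 0.71 in the other. Among the 6257 genes past the minimum, 198 were higher in KO at both stresses by these ratios and 208 were lower at both, against 95 and 11 of opposite direction. Because these values chose the members, they are described here without a test.

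The scaling matters for the split of 95 against 11. On the scale of library sums the median of all 6257 genes was 0.15 higher in KO than in WT on the log2 scale at HS6h, and 0.034 lower at T48. With trimmed mean of M values (TMM) factors, which scale by the bulk of genes, these medians were 0.01 at HS6h and 0.022 at T48. On the TMM scale 78 genes met the same ratios, and their split was 55 against 23. They included 52 of the 95 members and 10 of the 11. All 95 and all 11 kept their direction at both stresses on the TMM scale, where the 95 had a median log2 KO over WT of -0.67 at T48 and 0.58 at HS6h, and the 11 had 0.64 and -0.82.

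The 95 genes were of modest level. At T48 their median was 8.64 CPM in KO and 16.3 CPM in WT, against medians of 33.4 CPM in KO and 35.1 CPM in WT over all 6257 genes. At HS6h the 95 had a median of 16.4 CPM in KO and 9.43 CPM in WT, against 26.6 CPM in KO and 24.6 CPM in WT over all. Their KO over WT ratio at T48 lay between 0.309 and 0.7097, with a median of 0.607, and 22 of them were at 0.5 or less. At HS6h it lay between 1.401 and 3.13, with a median of 1.63, and 19 reached 2 or more. The 11 genes had a median of 11.9 CPM in KO and 7.96 CPM in WT at T48, and 3.90 CPM in KO and 6.89 CPM in WT at HS6h. Their ratio had a median of 1.502 at T48 (1.42 to 2.22) and of 0.623 at HS6h (0.108 to 0.699). With ratios of 2 and 0.5 in place of 1.4 and 0.71, 7 genes were left, 6 and 1, as the plot of KO over WT at the 2 stresses shows by how few points lie far from the limits.

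**Figure D1:**
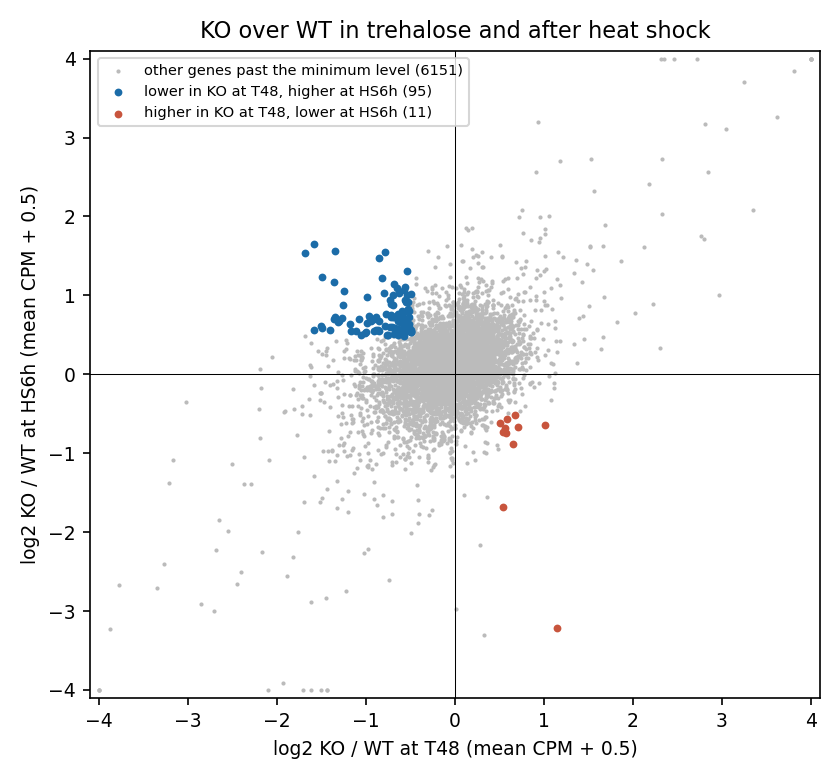
Each point is a gene, with the log2 KO over WT ratio of mean CPM + 0.5 at T48 on the horizontal axis and at HS6h on the vertical axis, on the scale of library sums and drawn at the limit where beyond 4. Grey points are the genes past the minimum level that are not members, the 95 genes lower at T48 and higher at HS6h lie in the upper left, and the 11 of the other direction lie in the lower right.

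The 3 KO libraries and the 3 WT libraries did not overlap at T48 for 80 of the 95 genes and 9 of the 11, against 43.2% of all 6257 genes in either direction. At HS6h they did not overlap for 80 of the 95 and 10 of the 11, against 49.5% of all. Both held for 67 of the 95 and 8 of the 11, together 75 genes or 70.8% of the members, against 24.7% of all. The choice of members by these same libraries raises these shares, so nothing is read from them. Just inside the limits, the 95 had a ratio of 0.7097 at T48 and of 1.401 at HS6h, where genes at 0.712 and 1.398 were left out. Their higher mean was at least 5.06 CPM at T48 and 5.11 CPM at HS6h, where genes at 4.91 and 4.82 CPM were left out. For the 11, the ratios just inside and just outside were 1.416 and 1.392 at T48 and 0.699 and 0.7101 at HS6h.

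Of the 95, g11531 and g13282 had the largest opposite differences among the genes whose libraries were apart at both stresses. The transcript g11531 had 4.47, 5.17 and 7.30 CPM in KO at T48, against 19.9, 16.8 and 17.0 CPM in WT. After heat shock it had 18.0, 14.5 and 17.1 CPM in KO, against 3.07, 7.22 and 4.53 CPM in WT. The 2 genotypes thus traded places, with a KO over WT ratio of 0.334 at T48 and of 3.13 at HS6h. The transcript g13282 had 6.59, 5.17 and 6.12 CPM in KO at T48, against 22.8, 20.5 and 17.8 CPM in WT. At HS6h it had 26.8, 29.7 and 22.6 CPM in KO, against 9.66, 8.61 and 8.07 CPM in WT, and its ratio was 0.309 at T48 and 2.90 at HS6h. Neither gene had overlapping libraries at either stress.

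Of the 11, g10585 and g12929 led by the same rule. The transcript g10585 had 25.2, 20.4 and 18.2 CPM in KO at T48, against 8.37, 9.34 and 10.3 CPM in WT. At HS6h it had 2.42, 1.98 and 3.27 CPM in KO, against 28.7, 23.9 and 30.8 CPM in WT. Its ratio of 0.108 at HS6h was the lowest among the 11, beside 2.22 at T48. The transcript g12929 was closer to the limits, with ratios of 1.63 at T48 and 0.627 at HS6h. It had 7.53, 4.90 and 6.32 CPM in KO at T48, against 3.75, 3.11 and 4.05 CPM in WT, and 2.64, 3.37 and 4.05 CPM in KO at HS6h, against 5.56, 4.86 and 6.51 CPM in WT.

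**Figure D2:**
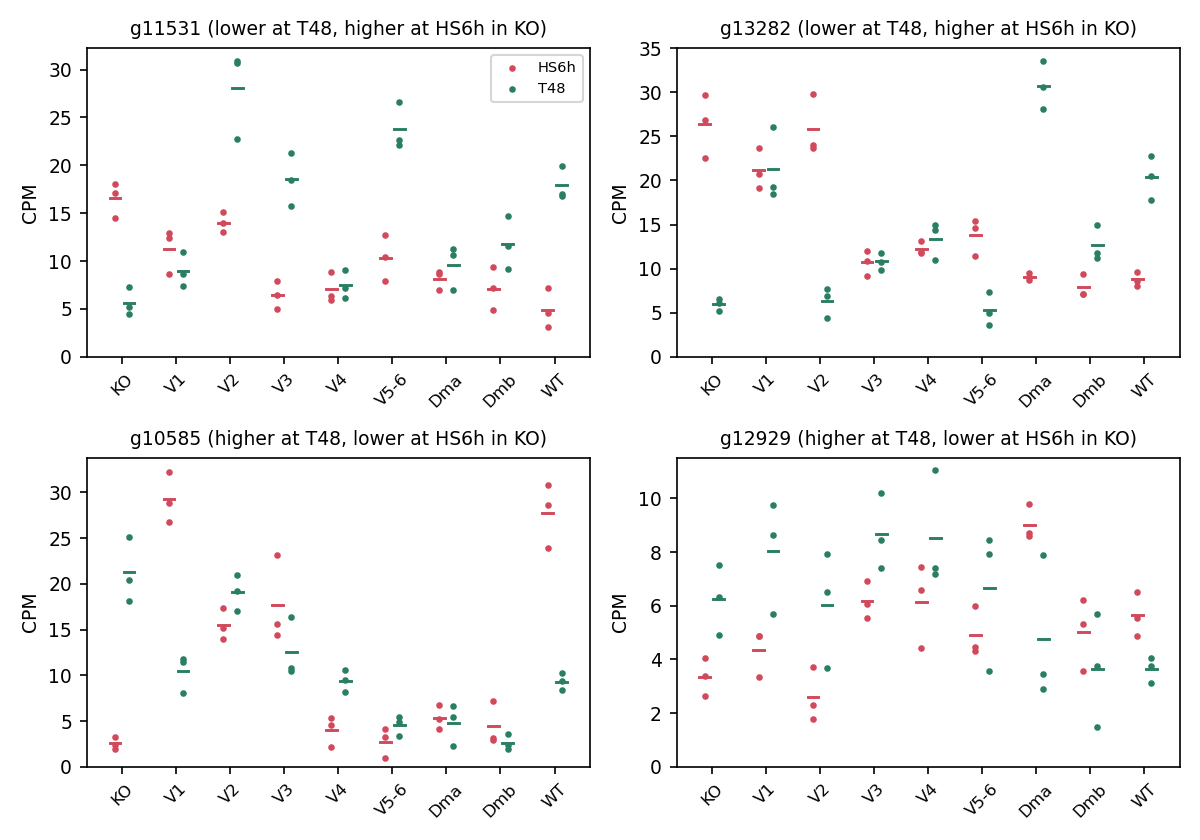
CPM on the scale of library sums (vertical axis) of g11531, g13282, g10585 and g12929 in the 9 genotypes (horizontal axis) at HS6h and T48, with a point per library and a bar at the mean of 3. In g11531 and g13282 KO lies above WT at HS6h and below it at T48, and in g10585 KO lies below V1, V2, V3 and WT at HS6h, near V4, V5-6, Dma and Dmb.

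The members had a median of 2 annotated transcripts per gene, against 4 over all 6257 genes, and 28 of the 106 (26.4%) had 1 transcript, against 15.2% of all. The choice set no limit on this number, but it used 1 transcript row per gene. The members were also of lower level than all genes, and no genes matched for level were compared. By their IDs, which number the gene models, 8 members formed 4 pairs of consecutive IDs, all among the 95. Other close IDs were not counted, though g1644 lies near g1646 and g1647, and g5564 near g5566 and g5569. No background was computed for pairs or for close IDs. The pair g13939 and g13940 ran close to each other in level. At HS6h g13939 had 24.6, 29.9 and 34.0 CPM in KO, against 11.6, 10.0 and 9.48 CPM in WT, and g13940 had 25.9, 19.8 and 20.3 CPM in KO, against 8.92, 9.58 and 8.92 CPM in WT. At T48 g13939 averaged 3.90 ± 0.505 CPM in KO and 7.44 ± 1.33 CPM in WT, and g13940 averaged 3.52 ± 2.01 CPM in KO and 6.61 ± 1.57 CPM in WT (SD, n = 3 each). Whether such neighbours are near-identical copies, or overlap and share reads, was not tested.

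The HSF1 lines showed how these genes stood when a single form was put back, set against KO and WT libraries that had chosen the members and therefore given without a test. On the TMM scale at T48, where KO was at a median log2 of -0.67 against WT over the 95 genes, V1 was at -0.21, V3 at -0.24, Dma at -0.20, Dmb at -0.37, V4 at -0.44, V5-6 at -0.55 and V2 at -0.63. At HS6h, where KO was at 0.58, V1 was at 0.40, V2 at 0.34, V5-6 at 0.26, V3 at 0.20, Dma at 0.045, V4 at -0.029 and Dmb at -0.19. On the scale of library sums the medians at T48 were -0.72 in KO, -0.090 in V1, -0.15 in V3, -0.36 in Dma, -0.63 in Dmb, -0.35 in V4, -0.51 in V5-6 and -0.63 in V2. At HS6h they were 0.70 in KO, 0.36 in V1, 0.33 in V2, 0.39 in V5-6, 0.23 in V3, 0.061 in Dma, 0.16 in V4 and -0.14 in Dmb. V4 was thus below WT at T48 on both scales, V2 was near KO there, and at HS6h V4 lay just under WT with TMM and above it with library sums, where the median of all genes in V4 was 0.19. At T48 the library-sum medians of all genes were -0.19 in Dma and -0.30 in Dmb. Between 33 (V2) and 64 (V1) of the 95 genes lay nearer to WT than to KO at T48, and between 39 (V2) and 76 (V4) did so at HS6h. For Dma and Dmb at T48 these counts depended on the scaling: 63 and 50 were nearer to WT on the TMM scale, and 49 and 34 on the scale of library sums. No share over all genes was computed for such counts. Over the 11 genes the medians against WT at T48 were 0.64 in KO, 0.21 in V1, 0.48 in V2, 0.47 in V3, 0.53 in V4, 0.35 in V5-6, 0.40 in Dma and 0.38 in Dmb on the TMM scale. At HS6h they were -0.82 in KO, -0.75 in V2, -0.57 in V5-6, -0.54 in V3, -0.32 in V1, -0.044 in V4, 0.024 in Dma and 0.40 in Dmb, with 0.15 in V4 on the scale of library sums.

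Individual genes took different courses from line to line. At T48 g11531 averaged 5.65 ± 1.48 CPM in KO, 28.1 ± 4.68 in V2, 23.8 ± 2.46 in V5-6, 18.5 ± 2.78 in V3, 11.8 ± 2.77 in Dmb, 9.62 ± 2.34 in Dma, 8.99 ± 1.83 in V1, 7.46 ± 1.45 in V4 and 17.9 ± 1.74 in WT (SD, n = 3 each). V2, V5-6 and V3 were thus at or above WT, and V4, V1 and Dma were closer to KO. In g13282 the order at T48 was another, with 5.96 ± 0.725 CPM in KO, 30.8 ± 2.70 in Dma, 21.3 ± 4.22 in V1, 13.4 ± 2.15 in V4, 12.6 ± 2.02 in Dmb, 10.8 ± 0.996 in V3, 6.34 ± 1.67 in V2, 5.31 ± 1.91 in V5-6 and 20.4 ± 2.50 in WT. Dma and V1 reached or passed WT there, while the libraries of V2 and V5-6 overlapped those of KO. At HS6h g10585 averaged 2.56 ± 0.66 CPM in KO, 29.3 ± 2.75 in V1, 17.7 ± 4.73 in V3, 15.5 ± 1.72 in V2, 5.36 ± 1.31 in Dma, 4.42 ± 2.38 in Dmb, 4.01 ± 1.68 in V4, 2.75 ± 1.64 in V5-6 and 27.8 ± 3.56 in WT. V1 was at the level of WT, V2 and V3 were between KO and WT, and V4, V5-6 and both Drosophila forms were close to KO.

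The transcript g11000 was low in every line at T48. It had 17.4, 13.3 and 17.2 CPM in KO at T48, against 25.4, 24.9 and 21.3 CPM in WT, while the 21 libraries of the 7 lines lay between 1.03 and 9.20 CPM. The transcript g5569 was lower still: the same 21 libraries had between 0 and 3.18 CPM at T48 and between 0 and 2.35 CPM at HS6h. It had 3.06, 2.72 and 3.36 CPM in KO at T48, against 7.79, 2.80 and 4.59 CPM in WT, and 7.03, 11.1 and 7.95 CPM in KO at HS6h, against 4.97, 2.22 and 4.25 CPM in WT. At T48 every line library thus lay below KO and WT in g11000, and so did all but the Dma library at 3.18 CPM in g5569. This did not hold for g11000 at R24, where V3 had 68, 124 and 123 counts, against 70, 68 and 46 in WT (not scaled for library size).

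Comparisons among the lines used no library of the choice and could be tested. The edgeR quasi-likelihood fit held the 42 libraries of the 7 lines at T48 and HS6h and 8665 genes, 94 of the 95 and all 11 among them. The transcript g5569 was removed by its low counts. A gene counts as called at an adjusted p under 0.05 over all genes tested, and differences are on the TMM scale. The SE printed beside them is the log2 difference divided by the square root of the F statistic of the test. It is not a direct standard error, and it can be too small where a group has few counts, as for g16360 in V4 at HS6h. Isoforms V4 and V5-6 were each set against the mean of V1, V2 and V3, so both comparisons share those libraries.

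After heat shock, 39 of 94 (41.5%) were called lower in V4 than in the mean of V1, V2 and V3, against 21.3% of all genes tested, and 5 were called higher, against 18.1%. Their median log2 difference was -0.29, against -0.016 over all genes tested. Of the 11, 6 were called higher and 3 lower, with a median of 0.44. At T48 21 of 94 were called lower, against 12.6% of all genes, and 7 called higher, against 14.5%, and the median was -0.025, against 0.024 over all genes. The 7 became 4, 3 and 4 without V3 replicate 2, V4 replicate 1 and V4 replicate 3, and 4 with no filter on low counts. Of the 11, 3 were called higher at T48 and 0 lower by edgeR or by DESeq2, with 1 lower at an unadjusted p under 0.05. Counts and medians of the members are a description, beside which stand the same values over all genes tested.

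Against V1, V2 and V3 after heat shock, the largest fall in V4 was in g16360 and the largest rise in g8270. The transcript g16360, the most abundant of the 11, had 0.738, 0.454 and 0.425 CPM in V4 at HS6h, from only 4, 2 and 2 counts. The 9 libraries of V1, V2 and V3 had a lowest value of 3.35, a median of 7.44 and a highest value of 15.1 CPM. The log2 difference was -3.91 (SE 0.33, edgeR adjusted p = 4.25e-18), and V4 was also below KO, at 1.54, 1.39 and 2.18 CPM, and WT, at 5.85, 6.39 and 7.50 CPM. The transcript g8270, also among the 11, had 7.94, 11.1 and 7.22 CPM in V4, against 1.14 to 4.42 CPM in V1, V2 and V3 with a median of 2.54 (log2 1.52, SE 0.32, edgeR adjusted p = 4.35e-05). No V4 library overlapped those of V1, V2 and V3 in either gene. A strong fall in V4 was also seen in g10585, at 5.35, 4.54 and 2.12 CPM, against 14.0 to 32.2 CPM in V1, V2 and V3 with a median of 17.4 (log2 -2.52, SE 0.26, edgeR adjusted p = 1.15e-13).

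At T48 the largest rise in V4 was in g2635 and the largest fall in g8025, both among the 95. The transcript g2635 had 35.7, 43.9 and 44.6 CPM in V4, against 7.36 to 14.3 CPM in V1, V2 and V3 with a median of 9.65 (log2 2.09, SE 0.13, edgeR adjusted p = 4.76e-25). V1, V2 and V3 were thus below KO, at 15.5, 20.7 and 24.9 CPM, and V4 was at the level of WT, at 41.5, 37.4 and 44.2 CPM. The transcript g8025 had 2.57, 1.28 and 3.83 CPM in V4, against 4.45 to 15.4 CPM in V1, V2 and V3 with a median of 7.74 (log2 -1.66, SE 0.33, edgeR adjusted p = 2.73e-05). Here V4 was at the level of KO, at 3.06, 2.72 and 4.34 CPM, and below WT, at 8.65, 14.0 and 8.63 CPM. Within a single line, members of the same direction could therefore stand on the side of WT or on that of KO.

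Isoform V5-6 was compared with V1, V2 and V3 in the same way. At T48 16 of 94 were called lower, against 8.4% of all genes, and 3 higher, against 10.4%, with a median log2 difference of -0.12, against 0.0082 over all genes. At HS6h 14 were called lower, against 11.1%, and 8 higher, against 11.8%, with a median of -0.062, against 0.021. Without V5-6 replicate 3 the 14 became 9, and without V5-6 replicate 2 or 3 the 8 became 5. Of the 11, 1 was called higher and 1 lower at T48, and 2 were called lower at HS6h, where edgeR and DESeq2 called 0 higher and 0 were higher at an unadjusted p under 0.05. The largest fall was in g10585, with 0.928, 4.12 and 3.20 CPM in V5-6 at HS6h, against 14.0 to 32.2 CPM in V1, V2 and V3 (log2 -2.99, SE 0.28, edgeR adjusted p = 1.56e-15). The largest rise at HS6h was in g11566, with 49.9, 60.3 and 47.9 CPM in V5-6, against 12.9 to 28.1 CPM in V1, V2 and V3 with a median of 25.4 (log2 1.12, SE 0.14, edgeR adjusted p = 1.96e-10). Its level in V5-6 was near that in KO, at 55.0, 58.0 and 60.3 CPM, and above that in WT, at 28.4, 33.3 and 42.5 CPM. At T48 the largest rise was again in g2635, with 14.5, 16.9 and 16.4 CPM in V5-6 (log2 0.76, SE 0.16, edgeR adjusted p = 0.000133). The largest fall at T48 was in g13939, with 1 count over the 3 V5-6 libraries and 81 over the 9 libraries of V1, V2 and V3, of which V1 held 58, V2 15 and V3 8. The ratio of their pooled CPM, which rests mostly on V1, was 0.0391, with an exact Poisson 95% interval of 0.000979 to 0.224 that covers counting error only (edgeR adjusted p = 0.00179).

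The Drosophila forms differed from each other in both directions. With Dmb over Dma at T48, 19 of 94 were called lower, against 9.02% of all genes, and 12 higher, against 9.79%. At HS6h 17 were called lower, against 12.8%, and 11 higher, against 9.97%. The members' medians were -0.27 at T48 and -0.22 at HS6h, against -0.023 and -0.031 over all genes tested. Some of these counts rest on single libraries. Those higher at T48 were 7, 7 and 6 without Dma replicate 2, Dma replicate 3 and Dmb replicate 1, and at HS6h those higher were 7 without Dmb replicate 1 and those lower 11 without Dmb replicate 3. Of the 11, 3 were called higher at T48 and 0 lower by edgeR or DESeq2 (0 at an unadjusted p under 0.05), and 4 were called higher and 1 lower at HS6h.

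At T48 g2635 was the largest rise in Dmb, with 31.8, 34.6 and 40.2 CPM, against 9.86, 17.9 and 22.9 CPM in Dma (log2 1.17, SE 0.16, edgeR adjusted p = 8.39e-09). Dmb thus stood with V4 and WT in this gene, and Dma with KO. The transcript g7316 fell in Dmb to 6.48, 1.25 and 3.21 CPM, against 14.6, 10.1 and 9.55 CPM in Dma (log2 -1.50, SE 0.36, edgeR adjusted p = 0.000943). At HS6h g11242 rose in Dmb to 8.45, 7.57 and 4.50 CPM, against 3.26, 2.53 and 3.12 CPM in Dma (log2 1.16, SE 0.33, edgeR adjusted p = 0.00497), but not without Dmb replicate 1 (adjusted p = 0.0505). The transcript g3426 fell in Dmb to 5.07, 4.85 and 2.25 CPM, against 9.79, 7.59 and 14.4 CPM in Dma (log2 -1.40, SE 0.25, edgeR adjusted p = 4.68e-06). None of these 4 genes had overlapping libraries between Dmb and Dma.

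**Figure D3:**
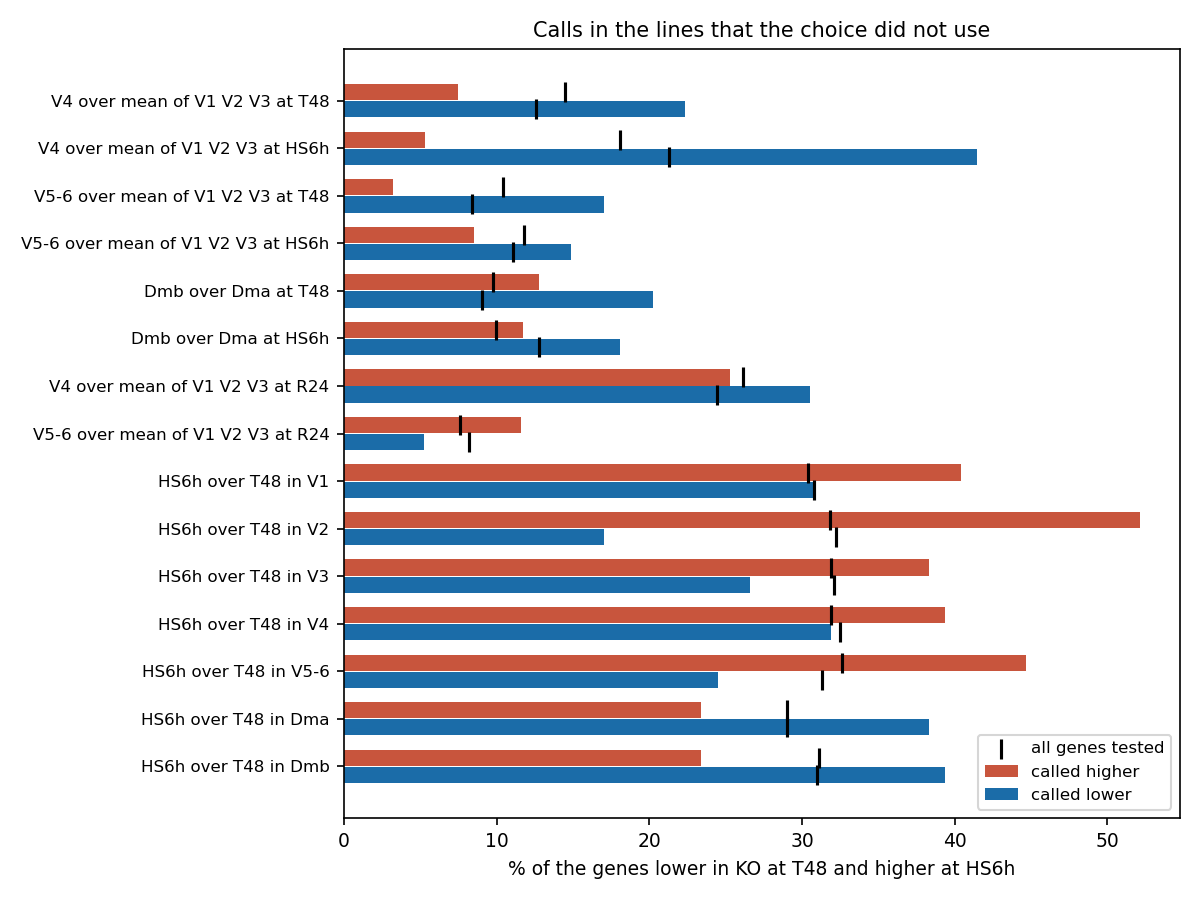
Bars give the percentage of the tested genes among the 95 that were called higher or lower in each comparison (edgeR adjusted p under 0.05), and black ticks give the same percentage over all genes tested. For V4 at HS6h the bar of lower genes reaches 41.5%, against a tick at 21.3%, and for HS6h over T48 in V2 the bar of higher genes reaches 52.1%, against 31.8%.

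The response of each line to heat shock, as HS6h over T48, asked whether these genes respond as in KO or as in WT when a single form is present. Here the scaling weighs more than within a stress, since the TMM factors had a median of 0.797 at HS6h and 1.09 at T48. On the TMM scale the median response of all 6257 genes lay between 0.0097 and 0.10 in every genotype, and on the scale of library sums between -0.61 and -0.086. The CPM printed here are on the scale of library sums, and the log2 responses on the TMM scale. By the choice, each of the 95 had a higher response in KO than in WT, and the medians were 1.17 and -0.38. The ratio limits of the choice also set a least size of this gap on the scale of library sums. The medians of the lines lay in between, with 0.63 in V2, 0.42 in V5-6, 0.21 in V1, 0.18 in V3, 0.089 in V4, -0.071 in Dmb and -0.089 in Dma. Measured against the median of all genes, these values moved by less than 0.1 with the scaling, and V4 (-0.012 with TMM, 0.017 with library sums) changed sign. Of the 95, the response was nearer to that of WT than to that of KO for 33 in V2, 49 in V5-6, 58 in V1, 61 in V3, 69 in Dmb, 70 in V4 and 74 in Dma. It lay between KO and WT for 52 of the 95 in Dma and for up to 75 in V4. These counts stand against KO and WT values that chose the members. No share over all genes was computed, so nothing is read from them.

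**Figure D4:**
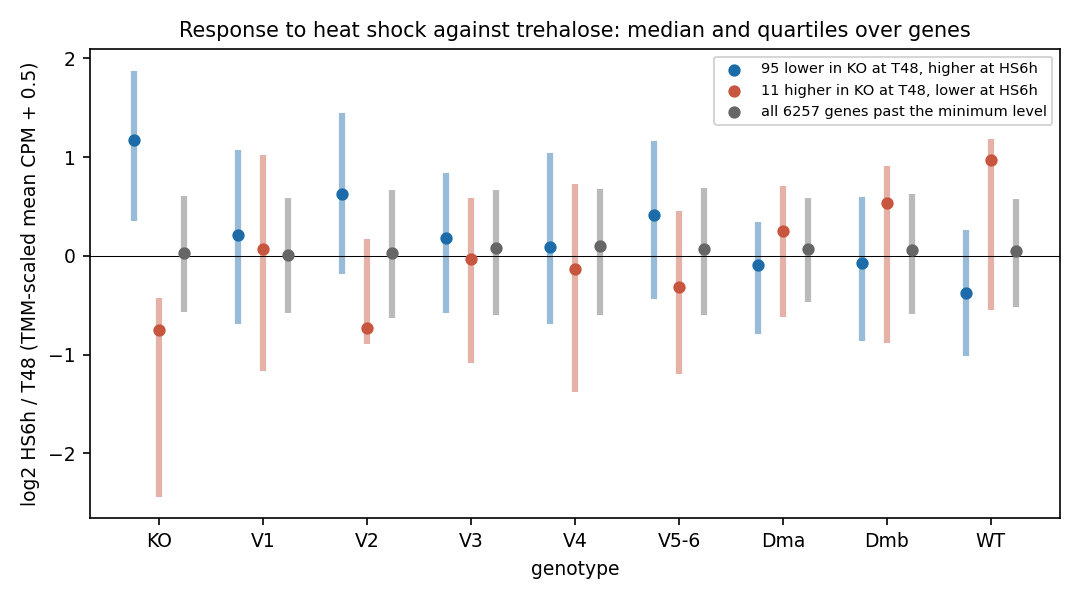
Points give the median log2 HS6h over T48 of TMM-scaled mean CPM + 0.5 (vertical axis) in each genotype (horizontal axis) for the 95 genes, the 11 genes and all 6257 genes past the minimum level, and bars span the quartiles over genes. The median of the 95 is highest in KO (1.17) and lowest in WT (-0.38), with V2 and V5-6 nearest to KO and the Drosophila forms nearest to WT. The choice fixes that KO lies above WT. Its limits of 0.71 and 1.4 also set a least gap between them for each of the 95 on the scale of library sums, so much of the distance shown was set in advance. The place of the lines between KO and WT was not tested.

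Tested within each line, the share of the 95 called higher after heat shock was above that of all genes in V2, V5-6 and V1, by less in V3 and V4, and below it in Dma and Dmb. In V2, 49 of 94 were called higher after heat shock, against 31.8% of all genes, and 16 lower, against 32.2%. In V5-6, 42 were called higher, against 32.6%, and 23 lower, against 31.3%. In V1, 38 were called higher, against 30.4%, and 29 lower, against 30.8%, in V3 36 higher, against 31.9%, and 25 lower, against 32.1%, and in V4 37 higher, against 31.9%, and 30 lower, against 32.5%. The higher calls were thus 40.4% in V1, 38.3% in V3 and 39.4% in V4. Leaving out a library gave 36 to 39 in V1, 32 to 35 in V3 and 33 to 37 in V4. The sum of transcript rows gave 37, 30 and 36 of 95. Shares over all genes in these alternatives are not given here. In Dma, 22 were called higher, against 29%, and 36 lower, against 29%. In Dmb, 22 were called higher, against 31.1%, and 37 lower, against 31%. Of the 11, 4 were called higher and 4 lower in V1, 2 and 3 in V3, 3 and 4 in V4, 3 and 3 in Dma and 4 and 3 in Dmb. In V2 and V5-6 none of the 11 was called higher by edgeR or DESeq2, with 0 higher at an unadjusted p under 0.05 in V2 and 1 in V5-6, while 6 were called lower in V2 and 4 in V5-6.

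The leading genes show how far the lines differed. The transcript g13282, which had a higher level after heat shock in KO, rose in V2 to 24.0, 23.6 and 29.8 CPM at HS6h, against 4.45, 6.91 and 7.64 CPM at T48 (log2 2.50, SE 0.23, edgeR adjusted p = 3.84e-17). It fell in Dma to 9.51, 9.01 and 8.75 CPM at HS6h, against 28.2, 30.6 and 33.6 CPM at T48 (log2 -1.49, SE 0.20, edgeR adjusted p = 1.03e-09). V2 thus followed KO in this gene, and Dma followed WT. The transcript g11531 rose after heat shock in V1 (log2 0.99, SE 0.25, edgeR adjusted p = 0.000361, libraries overlapping) and fell in V3 (log2 -1.02, SE 0.24, edgeR adjusted p = 0.000165). The transcript g10585 rose in V1 to 32.2, 28.8 and 26.8 CPM at HS6h, against 8.07, 11.8 and 11.4 CPM at T48 (log2 2.12, SE 0.26, edgeR adjusted p = 1.82e-11). In V4 the same gene fell to 5.35, 4.54 and 2.12 CPM at HS6h, against 9.51, 10.5 and 8.21 CPM at T48 (log2 -0.87, SE 0.33, edgeR adjusted p = 0.0165).

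By the edgeR log2 differences, among called genes whose libraries did not overlap, the largest rises after heat shock fell on 5 genes. The transcript g2635 rose most in V1, to 128, 124 and 115 CPM at HS6h, against 7.36, 14.3 and 9.01 CPM at T48 (log2 4.21, SE 0.15, edgeR adjusted p = 2.54e-43), and it was also the largest rise in V2, with 69.3, 74.9 and 71.9 CPM at HS6h, against 9.95, 7.68 and 8.09 CPM at T48. In V4 g6666 led, with 54.4, 54.3 and 60.8 CPM at HS6h, against 7.71, 12.3 and 14.0 CPM at T48 (log2 2.66, SE 0.17, edgeR adjusted p = 9.99e-25). In both Drosophila lines g11566 led: Dma had 20.1, 23.4 and 21.7 CPM at HS6h, against 3.94, 2.31 and 3.47 CPM at T48, and Dmb had 37.6, 41.3 and 36.0 CPM at HS6h, against 6.87, 1.74 and 6.63 CPM at T48. Both differences were 3.00 on the log2 scale (SE 0.27 in Dma and 0.23 in Dmb, edgeR adjusted p = 6.55e-17 and 5.9e-21). In V5-6 the neighbours g13939 and g13940 were almost absent at T48, with 1 and 3 counts over 3 libraries. At HS6h g13939 had 4.08, 3.40 and 4.91 CPM in V5-6, a ratio of 48.2 over T48 with an exact Poisson 95% interval of 8.34 to 1933 (edgeR adjusted p = 2.12e-08). In V3 g13940 led with 3.69, 2.78 and 1.93 CPM at HS6h, against 0.673, 0.602 and 0 CPM at T48 (log2 2.98, SE 0.73, edgeR adjusted p = 0.000224).

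The largest fall after heat shock was in g16360 in each of the 7 lines. In V4 it had 0.738, 0.454 and 0.425 CPM at HS6h (4, 2 and 2 counts), against 195, 185 and 187 CPM at T48 (log2 -8.02, SE 0.22, edgeR adjusted p = 3.88e-51). In Dma it had 10.9, 11.5 and 12.7 CPM at HS6h, against 144, 130 and 151 CPM at T48 (log2 -3.33, SE 0.13, edgeR adjusted p = 2.2e-40). In WT the gene had 5.85, 6.39 and 7.50 CPM at HS6h, against 113, 115 and 122 CPM at T48, and in KO 1.54, 1.39 and 2.18 CPM at HS6h, against 168, 158 and 181 CPM at T48. It was thus low after heat shock in every genotype, and lower in KO than in WT.

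The responses themselves were compared between lines, in the same libraries as the levels above. The response of V4 over the mean response of V1, V2 and V3 was called higher for 4 of 94, against 8.89% of all genes, and lower for 15, against 13.9%. That of V5-6 was called higher for 7, against 6.56%, and lower for 4, against 8.55%. For Dmb over Dma, 3 were called higher, against 2.74%, and 4 lower, against 5.31%. Of the 11, 1 was called higher and 3 lower in V4, 2 were called lower in V5-6 and 1 was called lower in Dmb over Dma. No member of the 11 was called higher by edgeR or DESeq2 in V5-6 or in Dmb over Dma, where 0 and 1 were higher at an unadjusted p under 0.05. The largest of these differences was in g16360, whose response was lower in V4 by a log2 of -3.84 (SE 0.35, edgeR adjusted p = 7.59e-16), with 4, 2 and 2 counts in V4 at HS6h. In g10585 the response was also lower in V4 (log2 -1.99, SE 0.36, edgeR adjusted p = 9.3e-06) and in V5-6 (log2 -1.45, SE 0.42, edgeR adjusted p = 0.00856).

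At R24, 24 h after rehydration, no library had entered the choice and no KO was measured. All 95 and all 11 were among the 8929 genes tested in the 18 libraries. Replicate 2 of V1, of V2 and of V4 stood apart from both other libraries of its group. The variance of its differences from them over genes was 9.72 to 15.3 times that of counting error, against 3.205 to 3.618 times between those others, and V3 replicates 1 and 3 also differed by 11.3 times. Calls at R24 are therefore given with and without replicate 2 of V1, V2 and V4. The lines carrying V1 to V5-6 were set against the same 3 WT libraries. Over WT, 12 of the 95 were called higher in V1, against 11% of all genes, and 10 lower, against 9.72%. In V2 24 were called higher, against 17.4%, and 19 lower, against 15.9%. In V3 21 were called higher, against 15.3%, and 24 lower, against 15.2%. In V4 14 were called higher, against 12.4%, and 21 lower, against 14.9%, and the 14 became 6, 9 and 8 without V4 replicate 1, V4 replicate 3 and WT replicate 2. In V5-6 14 were called higher, against 7.66%, and 15 lower, against 8.97%. Without replicate 2 of V1, V2 and V4, an alternative added after seeing the data, the higher and lower calls were 15 and 14 in V1, 27 and 18 in V2, 21 and 26 in V3, 19 and 21 in V4 and 20 and 16 in V5-6. The calls went in both directions in every line with and without these libraries, and the medians of the 95 lay between -0.059 (V1) and 0.11 (V5-6).

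Of the 11, V1, V2 and V5-6 had 2, 3 and 3 called lower than WT at R24, and none called higher by edgeR or DESeq2, or higher at an unadjusted p under 0.05. V3 had 1 called higher and 2 lower, and V4 had 1 of each. Without replicate 2 of V1, V2 and V4, the lower calls among the 11 were 2 in V1, 4 in V2, 3 in V3, 5 in V4 and 3 in V5-6, and the higher ones 1 in V3 and 1 in V4. The transcript g16360 had 17.0, 15.1 and 13.9 CPM in V3, against 55.3, 36.6 and 48.9 CPM in WT (log2 -1.65, SE 0.15, edgeR adjusted p = 8.15e-09). It was also lower than WT in V1, V2 and V5-6, while V4 had 42.5, 42.2 and 59.0 CPM, overlapping WT. The one rise in V4 was in g12478, with 19.3, 14.3 and 16.5 CPM, against 7.98, 7.51 and 4.15 CPM in WT (log2 1.10, SE 0.25, edgeR adjusted p = 0.00211).

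Among the 95 the deepest falls at R24 were in g5569, with between 0 and 1.17 CPM in the 15 libraries of the lines, against 13.3, 10.4 and 7.44 CPM in WT. The log2 difference from WT lay between -4.78 in V4 and -3.48 in V5-6 (SE 0.57 and 0.49, edgeR adjusted p = 7.87e-07 and 1.6e-05). This is the gene that its low counts removed from the fit of the lines at T48 and HS6h. The largest rise was in g7316 in 3 lines, which had 12.7, 12.5 and 16.3 CPM in V2, 9.05, 11.8 and 16.0 CPM in V3 and 14.2, 10.1 and 8.50 CPM in V5-6, against 5.85, 4.08 and 3.80 CPM in WT. The log2 differences were 1.59 in V2, 1.38 in V3 and 1.11 in V5-6 (SE 0.28 in each, edgeR adjusted p = 9.29e-05, 0.000469 and 0.00763), and the call in V5-6 was lost without its replicate 1 (adjusted p = 0.0627). In V1 the largest rise was in g16118, with 18.8, 13.6 and 15.2 CPM, against 4.96, 8.81 and 6.40 CPM in WT (SE 0.23, edgeR adjusted p = 0.000535).

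Set against V1, V2 and V3 at R24, V4 had 29 of the 95 called lower, against 24.4% of all genes, and 24 higher, against 26.1%. Of the 11, 5 were called higher and 0 lower by edgeR or DESeq2, with 0 lower at an unadjusted p under 0.05. V5-6 had 11 called higher, against 7.6%, and 5 lower, against 8.16%, and without V5-6 replicates 1, 2 and 3 the 11 became 5, 5 and 3 and the 5 became 2, 3 and 2. Of the 11, 2 were called lower in V5-6, and 0 higher by edgeR or DESeq2, with 1 higher at an unadjusted p under 0.05. Without replicate 2 of V1, V2 and V4 the higher and lower calls of the 95 were 23 and 25 in V4 and 12 and 6 in V5-6, and those of the 11 were 3 and 1 in V4 and 1 and 3 in V5-6. The 5 of the 11 also became 3 without V4 replicate 2 alone. The largest fall in V4 was in g8368, with 33.2, 26.7 and 27.2 CPM, against 62.3 to 122 CPM in V1, V2 and V3 with a median of 91.8 (log2 -1.81, SE 0.084, edgeR adjusted p = 2.27e-14). V4 was also below WT in this gene, at 41.7, 45.4 and 45.0 CPM. The largest rise in V4 was in g2635, with 43.7, 60.8 and 55.9 CPM, against 10.0 to 42.8 CPM in V1, V2 and V3 with a median of 14.1 (log2 1.32, SE 0.14, edgeR adjusted p = 2.46e-08). As at T48, V4 was the isoform line nearest to WT in g2635, where WT had 60.4, 73.9 and 70.0 CPM. In V5-6 g6666 rose to 69.6, 67.5 and 66.4 CPM, against 36.1 to 48.7 CPM in V1, V2 and V3 with a median of 42.2 (log2 0.56, SE 0.083, edgeR adjusted p = 2.87e-05), and g10585 fell to 3.69, 2.53 and 3.22 CPM, against 4.70 to 7.94 CPM with a median of 6.73 (log2 -1.15, SE 0.27, edgeR adjusted p = 0.00397).

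The most abundant of the 95, g1647, kept its order of lines through the 3 treatments only in part. At T48 it had 388, 424 and 389 CPM in KO, 467, 496 and 452 CPM in V4, 597 to 630 CPM in V2 and 913 to 921 CPM in V1, against 906 to 913 CPM in WT. At HS6h it had 326, 328 and 311 CPM in KO, 325 to 344 CPM in V1, 380 to 399 CPM in V2 and 233 to 234 CPM in V4, against 199, 217 and 206 CPM in WT. V1 was thus at the level of WT at T48 and near that of KO at HS6h. At R24 it had 468, 421 and 446 CPM in V4, 648 to 742 CPM in V1, V2 and V3 and 676 to 685 CPM in V5-6, against 499, 499 and 459 CPM in WT. V4 was thus lower than V1, V2 and V3 in all 3 treatments, by a log2 of -0.83 at T48, -0.77 at HS6h and -0.86 at R24 (SE 0.050, 0.052 and 0.058, edgeR adjusted p = 1e-25, 2.14e-23 and 1.75e-11).

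**Figure D5:**
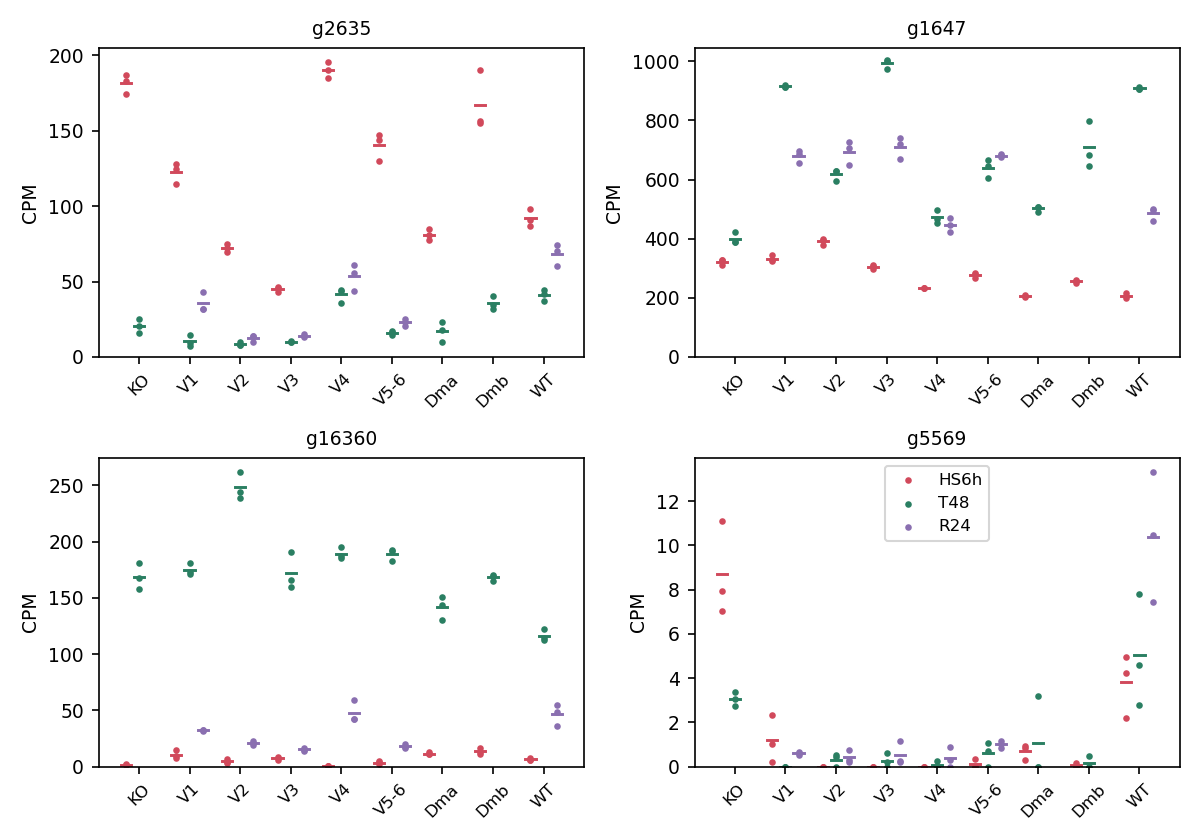
CPM on the scale of library sums (vertical axis) of g2635, g1647, g16360 and g5569 in the 9 genotypes (horizontal axis) at HS6h, T48 and R24, with a point per library and a bar at the mean of 3 (KO, Dma and Dmb were not measured at R24). In g2635 V4 and Dmb are near WT at T48, g16360 is at or below 16.7 CPM at HS6h in every genotype, and g5569 is at or below 3.18 CPM in the lines.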

How the data were processed

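The authors deposited raw counts of polyA RNA reads by transcript, in a table for all libraries. The submitters' processing notes name FastQC 0.11.9, Trimmomatic 0.39, HISAT2 2.2.1 and HTSeq 2.0.9. The genome build, annotation and strand setting are not given in the sources used here and reads of overlapping, antisense or near-identical genes may be mixed. Besides 65235 transcripts the table has 5 special rows, which were left out. Reads without a feature came to 38.3% to 46.5% per library when added to the gene counts. All transcript rows together sum to 18.5 to 26.1 times the gene counts, so each gene is given by its transcript of highest total.

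The members, gene lists and tests were chosen with earlier results of these data known. Tests used edgeR 4.0.16 in R 4.3.3 (filterByExpr, TMM, quasi-likelihood, Benjamini-Hochberg adjustment over all genes) in 2 fits, 42 libraries of the lines at T48 and HS6h and 18 libraries at R24, without covariates, since the labels give no batch. No 2 libraries of a group agreed within counting error (variance 2.21 to 15.3 times it). The steps were tested on simulated counts. Named genes are, per direction, the 2 with the largest smaller KO over WT difference whose libraries do not overlap and the most abundant one, and per comparison the largest rise and fall among called genes whose libraries do not overlap. For comparisons of responses between lines no condition on overlap was set. Other values of these genes are given beside them. Lists of chaperones, late embryogenesis abundant proteins, trehalose enzymes, thioredoxins and isoaspartate methyltransferases were void, because no ID has a name. Alternatives were DESeq2 1.42.0, its size factors in edgeR, no filter, a fit of all 72 libraries, the sum of transcript rows, other limits of the choice, and leaving out each library.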

Additional observations from a re-analysis of the deposited data

Results flagged for a closer look

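The KO and WT libraries of 75 members were apart at T48 in one direction and at HS6h in the other. The choice of members fixes this direction, and the difference was not tested.

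The responses to heat shock of named members differed between lines by a test of the difference itself, on the log2 scale. The response of V4 over that of V1, V2 and V3 was 1.41 in g11000 (edgeR adjusted p = 0.0446) and -3.84 in g16360 (edgeR adjusted p = 7.59e-16). The value for g16360 rests on 4, 2 and 2 counts in V4 at HS6h. In g11000 V4 had 4.80, 3.63 and 7.01 CPM at HS6h, against 2.57, 1.03 and 4.93 CPM at T48. Its call was lost with adjusted p values of 0.05 to 0.216 without T48 V1 replicate 2 or 3, V2 replicate 1, V3 replicate 2 or 3, V4 replicate 1 or 2, or HS6h V1 replicate 2, V2 replicate 2, V3 replicate 3, V4 replicate 1 or 3, and the log2 difference then lay between 1.00 and 1.46.

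The response of V5-6 over that of V1, V2 and V3 was 3.23 in g13939 (edgeR adjusted p = 0.0259) and -1.53 in g7414 (edgeR adjusted p = 6.11e-05). The value for g13939 rests on 1 count at T48 in V5-6 and depends on the count that the fit adds, and the call was lost without T48 V5-6 replicate 2 or 3 or HS6h V5-6 replicate 3 (2.74, 2.78 and 3.08). In g7414 V5-6 had 5.01, 6.45 and 2.78 CPM at HS6h, against 16.4, 24.7 and 17.1 CPM at T48.

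The response of Dmb over that of Dma was 0.96 in g13282 (edgeR adjusted p = 0.0341) and -1.07 in g3426 (edgeR adjusted p = 0.0143). The call for g13282 was lost without T48 Dma replicate 2 or 3, T48 Dmb replicate 1 or 3, HS6h Dma replicate 2 or 3, or HS6h Dmb replicate 1, with 0.82 to 0.95. The call for g3426 was lost without T48 Dma replicate 2, HS6h Dma replicate 3 or HS6h Dmb replicate 3, with -0.92, -0.83 and -0.80.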

How the results depend on the processing

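The number of members moved with the choice itself. It was 22 with the sum of transcript rows, of which 16 were among the 95 and 0 among the 11, 185 with a minimum of 2 CPM, 56 with 10 CPM and 7 with ratios of 2 and 0.5. In the sum of rows 86 members fell under 5 CPM, since library sums there count a read many times. Leaving out each of the 12 KO and WT libraries gave 103 to 118 genes, with 89 to 99 of the 106 shared. With TMM 62 of the 78 genes were shared.

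In the 23 tested comparisons, the total of called members, both directions together, stayed within 1.5 times that reported with DESeq2, its size factors, no filter, all 72 libraries, and at R24 without replicate 2 of V1, V2 and V4. Single directions moved further: with no filter those higher in the response of Dmb over Dma were 1 in place of 3, and among the 11 those higher in Dmb over Dma at HS6h were 1 in place of 4. All 72 libraries gave 1 of the 11 higher after heat shock in V5-6, in place of 0. The sum of rows gave 7 in place of 11 higher in Dmb over Dma at HS6h, and counts of 4 or fewer, there and on leaving out a library, moved by up to 3. For totals with the sum of rows, 22 comparisons stayed within 1.5 times, and the response of Dmb over Dma had 5 in place of 8. Leaving out each library, that response had 3 to 8, and V5-6 over V1, V2 and V3 at R24 had 6 to 21 in place of 18, with 8, 9 and 6 without V5-6 replicates 1, 2 and 3. For the response of Dmb over Dma 9 libraries moved the count, to 3 without HS6h Dma replicate 3 and to 5 without T48 Dma replicates 2 and 3, T48 Dmb replicates 1, 2 and 3, HS6h Dma replicate 2 and HS6h Dmb replicates 1 and 2. The cause was not tested. No named gene changed direction, and calls were also lost for g11000 with the sum of rows (adjusted p = 0.104), g13282 with no filter (0.0802) and g3426 with all 72 libraries (0.0566). No paired analysis was possible because replicate numbers follow accession order and pair no libraries. At these levels, often under 10 CPM, counting error limits small differences.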
